A study of Mus musculus with 12 samples.

Results

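The subunits of the mitochondrial respiratory chain and of ATP synthase were followed in mouse bone marrow macrophages under interleukin-4 (IL-4), a cytokine that drives macrophages into an alternative activation state. The members were chosen by name: all array probes whose gene name begins with Nduf (a, b, c, s or v), Uqcr, Cox4 to Cox8 or Atp5. Of 107 such probes for 78 gene names, 101 probes for 76 names passed a background filter that asked for a clear signal on both arrays of any 1 of the 6 groups. In all, 27373 probes for 18581 names passed it. They hold 7 probes for the core subunits of complex I, 41 for its accessory subunits, 10 for complex III, 16 for complex IV and 22 for ATP synthase. The other 5 probes match by name only: Ndufaf1 is an assembly factor, and Atp5s and Cox4nb now have the RefSeq symbols Dmac2l and Emc8.

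Macrophages were grown from the bone marrow of C57BL6/J and Balb/cAnNCrl mice (C57BL6 and Balb/c below), both wild-type strains as far as the labels say, aged 8 to 12 weeks. Each sample pooled 2 males and 1 female. Cells were differentiated with CSF1 at 200 ng/ml and given IL-4 at 10 ng/ml for 4 h or 18 h on day 7, or left without it for 18 h (mock), so the 4 h samples have no time-matched control. Each of the 6 groups has 2 arrays, from 2 experiments with different littermates, and the p-values measure the spread between these pooled samples; the number of arrays limits the precision.

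Complexes I to IV of the inner mitochondrial membrane pass electrons from NADH and succinate to oxygen, and complexes I, III and IV pump protons as they do so. ATP synthase lets the protons flow back and makes ATP. Most of the subunits are encoded in the nucleus, and their promoters are known targets of NRF1, of GABP (an ETS family factor) and of YY1, with coactivators such as Ppargc1b; alternatively activated macrophages are known for their reliance on oxidative metabolism.

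Promoter sequence was available in RefSeq (GRCm38.p6) for 64 of the 78 names, with 69 promoters, each 300 bases long from 250 before to 50 after the start site. The NRF1 motif GCGCANGCG, searched on both strands, was found in 19 of the 69 (27.5%), against 6.25% of all 32851 promoters. CCGGAAG (ETS and GABP) was found in 21.7% against 8.86%, and AAGATGG (YY1) in 15.9% against 6.34%. These matches describe letters in a window and are no evidence of binding. The windows below are examples from members that were called higher at 18 h of IL-4, mostly with the replicate block described below, or that differed between the strains, each of 30 bases on the gene's strand with the motif or its reverse complement in capitals.
Uqcrc1, chr9:108936643-108936672 (+), NRF1: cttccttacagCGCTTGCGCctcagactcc
Uqcrc1, chr9:108936668-108936697 (+), NRF1: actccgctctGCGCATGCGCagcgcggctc
Atp5g3, chr2:73911295-73911324 (-), NRF1: gagccgcaccgCGCTTGCGCgcccagcccc
Atp5o, chr16:91931602-91931631 (-), NRF1: gctggcgcgcgCGCGTGCGCtctggcgcca
Cox8a, chr19:7217604-7217633 (-), ETS and GABP: atttccgaaataCTTCCGGctcgggcgtcc
Ndufc1, chr3:51408916-51408945 (-), YY1: agcctgcggaacAAGATGGcgccgtccgta
Cox7c, chr13:86046780-86046809 (-), YY1: ctgttgtaactcCCATCTTccctttcggtc
In Uqcrc1 both NRF1 matches lay after the start site, the first beginning 7 bases and the other 31 bases behind it. The match began 14 bases behind the start in Atp5g3, 11 in Atp5o and 23 in Ndufc1. In Cox8a it began 5 bases before the start, and a second ETS and GABP match, not shown, began 33 bases behind it. In Cox7c it began 2 bases before the start. Called members with matches not shown were Ndufb6 (ETS and GABP, 232 bases before the start), Ndufb10 (NRF1, 2 bases before) and Ndufb4 (3 NRF1 matches, 191, 79 and 22 bases before). The promoter windows of the called members Atp5b, Atp5d, Atp5g1, Cox7b, Ndufa10, Ndufb5, Ndufab1 and Cox6b2 held none of the 3 motifs. Others, such as Atp5a1 and Ndufb9, had no promoter sequence.

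All levels below are log2 of the scanner's processed signal minus that array's 75th percentile, so 0 is the 75th percentile and 1 unit is a 2-fold difference, and levels of different probes are not compared. The 75th percentile lay between 1196 and 1690 signal units over the 12 arrays, and 54.9 to 69.7% of the spots on an array were well above background. Of the 8 listed IL-4 response genes on the array, 7 and 8 were called higher at 4 h and 18 h in C57BL6, and 5 and 7 in Balb/c. Nnt, an inner membrane enzyme with a known deletion in C57BL6/J, was 1.29 to 1.42 higher in Balb/c by 3 of its 4 probes (adjusted p = 9.82e-05 to 0.000198). The limit on strain p-values given with the strain results applies to Nnt too. The 6 listed macrophage markers were above background on all arrays, and their summed signal (relative to the 75th percentile) was 430 to 496 in the mock arrays and 342 to 394 at 18 h. Their median change at 18 h was -0.08 in C57BL6 and -0.14 in Balb/c. Fcgr1 was called lower at 18 h in both strains (-1.98 and -1.90). Mertk was called lower in Balb/c (-1.36, and -1.86 to -0.85 with 1 array left out). The 6 neutrophil markers summed to 8.41 to 16.3 in C57BL6 and 2.14 to 4.74 in Balb/c, and were lower in both strains at 18 h than in mock. In Balb/c, 5 were called lower than in C57BL6 in mock and 6 over all conditions, with medians of -1.88 and -1.87. Of all probes, 5.68% and 18.2% were called in these comparisons, and the limit on strain p-values applies. Camp was called lower at 18 h in Balb/c (-1.57). The 5 B cell markers summed to 3.29 and 2.30 in C57BL6 mock and 1.66 and 1.09 at 18 h, and to 1.71 and 1.11 in Balb/c mock and 0.985 and 1.096 at 18 h; in each strain both 18 h arrays were below both mock arrays. The median change of the B cell markers at 18 h was -0.70 in C57BL6 but 0.30 in Balb/c. Over all conditions Cd79b was called lower in Balb/c (-0.97) and Ms4a1 higher (1.21). The 5 stromal markers summed to 0.367 to 0.633 in C57BL6 and 0.853 to 1.51 in Balb/c, and 5 T cell markers to at most 0.271. Of the stromal markers only Pdgfrb was called between the strains, 3.52 higher in Balb/c in mock and 3.74 over all conditions. The median difference of the stromal markers was -0.23 and 0.22. The part of these cells in the results was not tested. With RNA from whole cultures, a change in the share of a cell type cannot be told apart from a change in RNA per cell.

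After 18 h of IL-4 the respiratory chain probes lay slightly above mock in both strains. The median change was 0.14 over the 101 probes in C57BL6 and 0.34 in Balb/c, while over all 27373 probes it was -0.02 and 0.00. Medians of neighbouring pathways, some of similar size, are given with their lists below. In C57BL6, 77 of the 101 probes (76.2%) had a positive change, against 48.5% of all probes; in Balb/c it was 87 (86.1%) against 50.3%. In both strains together 69 (68.3%) were positive and 6 (5.94%) negative, against 30.8% and 31.9% of all probes. The 2 arrays at 18 h were both above the 2 mock arrays for 49 probes (48.5%) in C57BL6, against 24.5% of all probes, and for 76 (75.2%) in Balb/c, against 20.1%. These counts carry no test. The members also varied less between replicates, with a median replicate SD of 0.14 against 0.29 for all probes. A small shared shift thus separates the groups, or sets the sign, more readily for the members than for all probes.

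Few single probes passed one. Of the 101, 1 was called in C57BL6 at 18 h (0.99%; 4.24% of all probes were called, 1.87% higher) and 0 in Balb/c (3.65% of all probes), by limma at an adjusted p below 0.05; at an unadjusted p below 0.05 there were 10 and 30. With the replicate number as a block, which pairs samples of the same experiment, 11 were called in C57BL6 and 12 in Balb/c, all of them higher. These are 10.9% and 11.9% of the members, against 7.6% and 6.1% of all probes called higher and 17.3% and 14.2% called in either direction. Of these 11 and 12, 3 probes for Uqcrc1 and Atp5b were called in both strains, 27.3% and 25% of the calls. Single arrays carried some of these values. Without Balb/c mock replicate 1 the changes of 6 of the 12 shrank by more than 1.5 times, to 0.21 to 0.43: Atp5g1 (0.43), Atp5b by A_51_P207636 (0.43), Ndufab1 (0.21), Atp5o (0.35), Ndufb6 (0.37) and Ndufc1 (0.40). Without C57BL6 mock replicate 2, 4 of the 11 did, to 0.29 to 0.57: Atp5d (0.30), Cox8a (0.40), Atp5b by A_52_P553841 (0.57) and Cox4nb (0.29). Atp5d was also smaller without C57BL6 18 h replicate 1 (0.27), and Uqcrq without C57BL6 mock replicate 1 (0.27).

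**Figure D1:**
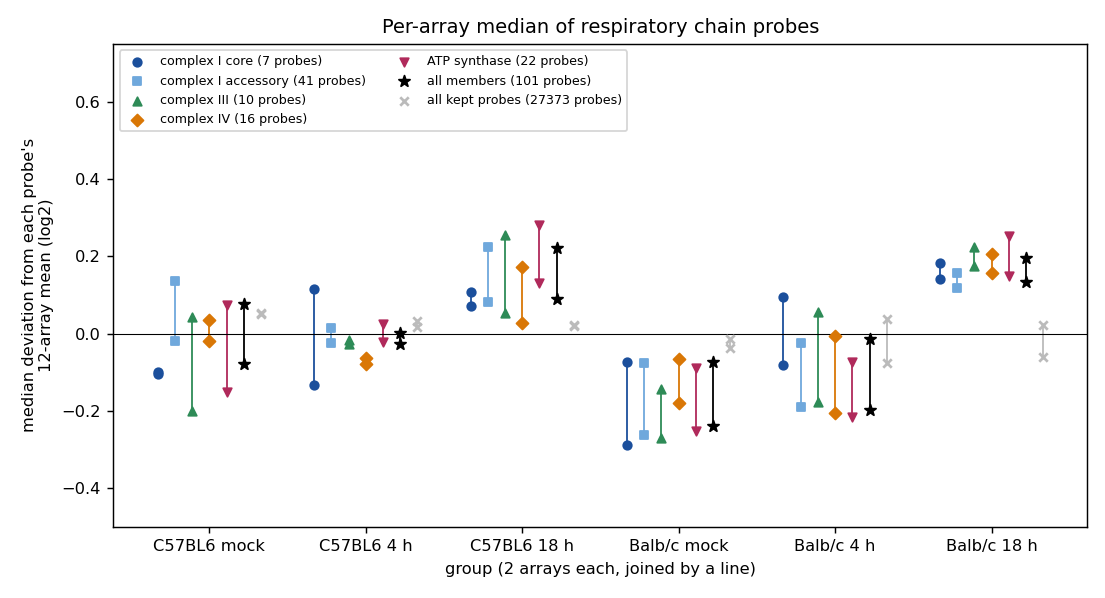
Median deviation of the probes of each complex from their own mean over the 12 arrays (log2), by array, with all 101 probes and all 27373 probes beside them; points are single arrays and a line joins the 2 of a group. The 18 h arrays of both strains lie at 0.09 to 0.22 for all 101 probes, and the all-probe medians lie between -0.07 and 0.05.

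The shift was visible array by array. The median deviation of the 101 probes from their own means was 0.08 and -0.08 in the C57BL6 mock arrays, 0.00 and -0.03 at 4 h and 0.22 and 0.09 at 18 h. In Balb/c it was -0.24 and -0.07 in mock, -0.01 and -0.20 at 4 h and 0.20 and 0.13 at 18 h. The 18 h arrays were thus the highest of each strain, and the Balb/c mock array of replicate 1 was the lowest of the 12; the pooled replicate SD of these medians was 0.09. Without that array the Balb/c median change at 18 h was 0.21. In C57BL6 the median change was 0.08 without mock replicate 2, 0.09 without 18 h replicate 1 and 0.23 without 18 h replicate 2. On the slide that held both conditions, the median change at 18 h was 0.21 in C57BL6 (2 arrays at 18 h, 1 in mock). In Balb/c it was 0.34 (1 array at 18 h, 2 in mock). The single C57BL6 mock array was replicate 2 and the single Balb/c 18 h array replicate 1. These values come from part of the same arrays, so they are no separate check.

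**Figure D2:**
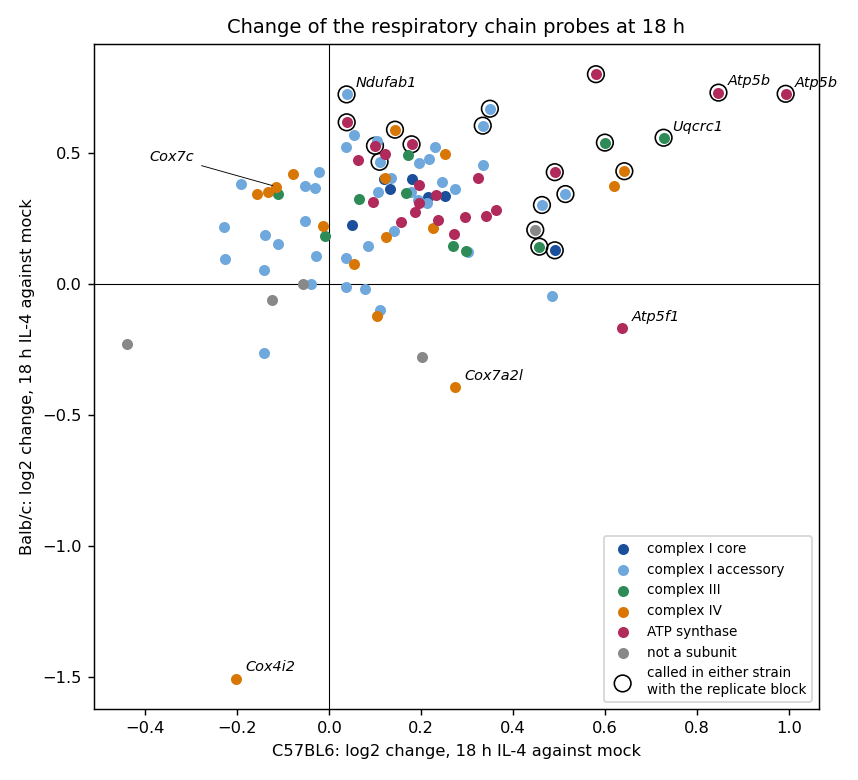
Log2 change at 18 h of IL-4 in C57BL6 (x axis) and Balb/c (y axis) for the 101 probes, coloured by complex; rings mark probes called in either strain with the replicate block. Of the points, 69 lie above 0 on both axes and 6 below 0 on both.

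Complex III, which passes electrons from ubiquinol to cytochrome c, held the only member called under IL-4 without the block. Uqcrc1 encodes a core subunit. By probe A_51_P109835 its levels in C57BL6 were 3.71 and 3.42 in mock, 3.97 and 3.97 at 4 h, and 4.33 and 4.25 at 18 h. In Balb/c they were 3.61 and 3.83, 4.00 and 3.92, and 4.30 and 4.25. In each strain the groups did not overlap and their order followed the time with IL-4. At 18 h the probe rose in C57BL6 by 0.73 ± 0.16 (SE), or 1.66-fold, with adjusted p = 0.0424 (0.0161 with the replicate block). In Balb/c the change was 0.56 ± 0.16 with adjusted p = 0.118, and it was called with the block (adjusted p = 0.0381).

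The other Uqcrc1 probe, A_51_P109828, gave 0.60 ± 0.15 in C57BL6 (adjusted p = 0.0732, with the block 0.0276) and 0.54 in Balb/c (0.119, with the block 0.0422). Within the slide that held both conditions, A_51_P109835 differed by 0.87 in C57BL6 (2 arrays against 1) and 0.58 in Balb/c (1 against 2). Its C57BL6 call was lost whichever of the 4 arrays compared was left out, with changes of 0.58 to 0.87 and adjusted p from 0.0631 to 0.238, and with the slide as a block (0.80, adjusted p = 0.0504).

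The remaining complex III probes gave smaller values. The median of the 10 was 0.22 in C57BL6 and 0.33 in Balb/c, with 8 and 10 positive. Uqcrc2, the other core subunit, stood at 4.33 and 4.32 in C57BL6 mock and 4.35 and 4.29 at 18 h, a change of -0.01. Uqcrfs1, the Rieske iron-sulphur subunit, differed from mock by 0.07 in C57BL6 and 0.33 in Balb/c, and neither passed the test. Uqcrq, a small accessory subunit, was called by probe A_52_P396522 with the block in C57BL6 at 4 h and 18 h (0.52 and 0.46; adjusted p = 0.0332 and 0.0451 with the block), while by A_52_P370484 it differed from mock by 0.17 at 18 h. The change by A_52_P396522 turned negative under another background correction.

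At 18 h the changes of ATP synthase were positive for 22 of 22 probes in C57BL6, with a median of 0.23, and 21 of 22 in Balb/c, with a median of 0.36. The 8 probes of its catalytic part were positive in both strains, with medians of 0.26 and 0.46. Atp5b encodes the catalytic beta subunit. By probe A_51_P207636 its levels in C57BL6 were 4.24 and 3.81 in mock, 4.71 and 4.58 at 4 h, and 4.95 and 4.80 at 18 h. In Balb/c they were 3.83 and 4.42, 4.12 and 4.59, and 4.74 and 4.96. The 18 h arrays were above the mock arrays in both strains, and in Balb/c the 4 h arrays overlapped the mock arrays and lay below the 18 h arrays. The change at 18 h was 0.85 ± 0.26 in C57BL6 (1.8-fold; adjusted p = 0.128) and 0.73 ± 0.26 in Balb/c (0.228), and with the block it was called in each (adjusted p = 0.0127 and 0.022).

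The 3 Atp5b probes did not give the same size. Probe A_52_P553841 differed from mock by 0.99 ± 0.32 in C57BL6 (adjusted p = 0.0271 with the block) and 0.73 in Balb/c (adjusted p = 0.0687 with the block). Probe A_52_P328078 read 6.86 and 6.74 in C57BL6 mock against 6.94 and 6.90 at 18 h, a change of 0.12 with adjusted p = 0.792, and in Balb/c a change of 0.49. At 4 h in C57BL6 its change was negative (-0.13) and that of A_51_P207636 positive (0.62). The size of the Atp5b change in C57BL6 thus depended on the probe.

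The c ring of ATP synthase, the rotor that turns as protons pass, is encoded by the paralogues Atp5g1, Atp5g2 and Atp5g3, which specify the same mature peptide. In Balb/c, Atp5g3 stood at 6.11 and 6.38 in mock, 6.33 and 6.28 at 4 h and 6.88 and 6.84 at 18 h. The 18 h arrays were above all others, and the change of 0.62 ± 0.15 had adjusted p = 0.069 and was called with the block (adjusted p = 0.025). In C57BL6 the 18 h levels of 6.58 and 6.62 lay between the mock levels of 6.64 and 6.50, a change of 0.04. Atp5g1 differed from mock by 0.80 ± 0.27 in Balb/c, from 2.96 and 3.71 to 4.07 and 4.20, and was called with the block (adjusted p = 0.04); in C57BL6 it differed from mock by 0.58 and was not. Atp5g2 differed from mock by 0.23 and 0.34 by A_51_P417399, with no call. Among the other subunits, Atp5o, of the stalk, and Atp5a1, the alpha subunit of the catalytic part, were called with the block in Balb/c (both 0.53; adjusted p = 0.0434 and 0.0455). Atp5d, of the central stalk, was called with it in C57BL6 (0.49; adjusted p = 0.0361).

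Complex I takes electrons from NADH. Its 7 core probes, for the subunits that carry the flavin and the iron-sulphur clusters, were positive in both strains at 18 h, with medians of 0.18 and 0.34. Ndufs1, the largest core subunit, differed from mock by 0.18 and 0.40, and Ndufv1, which binds the flavin, by 0.22 and 0.33, neither called in either fit.

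The 41 accessory probes of complex I had medians of 0.10 in C57BL6 (28 positive) and 0.34 in Balb/c (35 positive). With the block, Ndufa10 (0.51, adjusted p = 0.0243) and Ndufb5 (0.46, adjusted p = 0.0408) were called in C57BL6. In Balb/c it was Ndufab1 by probe A_51_P208801 (0.72, adjusted p = 0.0331), Ndufc1 by A_52_P270888 (0.67, adjusted p = 0.0282), Ndufb6 (0.60, adjusted p = 0.033) and Ndufb9 (0.47, adjusted p = 0.0491). Ndufab1 is the mitochondrial acyl carrier protein, and Ndufb6, Ndufb9 and Ndufc1 are membrane arm subunits. Ndufc1 read 1.62 and 2.16 in Balb/c mock, 2.02 and 2.07 at 4 h, and 2.47 and 2.65 at 18 h. Ndufab1 read -0.36 and 0.66, -0.06 and 0.53, and 0.66 and 1.08. In both genes replicate 1 of mock was the lowest array, and for Ndufab1 one 18 h array lay next to the other mock array. The Ndufab1 change was 0.21 without mock replicate 1 and 1.23 without mock replicate 2, and the other Ndufab1 probes gave 0.37 (A_52_P1093473) and 0.11 (A_52_P303235). At the low end stood Ndufb3 and Ndufb11, both -0.23 in C57BL6 and 0.10 and 0.22 in Balb/c.

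Complex IV reduces oxygen to water. Its 16 probes had medians of 0.11 in C57BL6 (10 positive) and 0.35 in Balb/c (13 positive). Cox8a read 5.39 and 4.90 in C57BL6 mock, 5.48 and 5.43 at 4 h and 5.90 and 5.68 at 18 h, a change of 0.64 ± 0.20 with adjusted p = 0.135 that was called with the block (adjusted p = 0.0317); in Balb/c it was 0.43. Cox7b read 2.74 and 3.13 in Balb/c mock, 3.06 and 3.09 at 4 h and 3.56 and 3.49 at 18 h. Its change of 0.59 ± 0.16 had adjusted p = 0.114 and was called with the block (adjusted p = 0.0381), while in C57BL6 it was 0.14. Cox4i1, the regulatory subunit, differed from mock by 0.05 and 0.08 and Cox5a by 0.12 and 0.40, without a call in either fit. Ndufa4, named for complex I but since assigned to complex IV, differed from mock by 0.11 and 0.35.

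The probes that match by name only gave a median of -0.06 in each strain. Cox4nb (Emc8, of the endoplasmic reticulum) was called with the block in C57BL6 at 18 h (0.45, adjusted p = 0.0339).

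**Figure D3:**
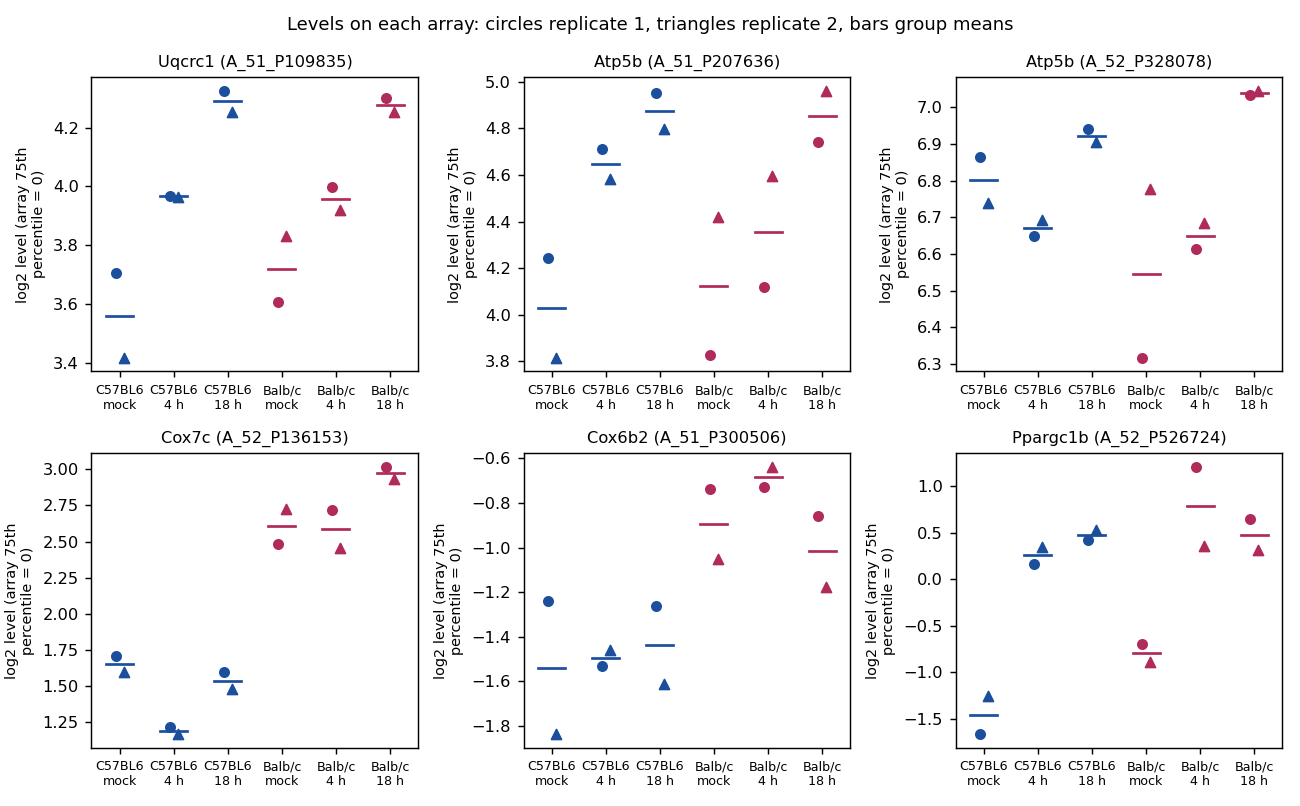
Log2 level relative to the array's 75th percentile on each of the 12 arrays for 6 probes: Uqcrc1, 2 probes of Atp5b, Cox7c, Cox6b2 and Ppargc1b; circles are replicate 1, triangles replicate 2 and bars group means. Uqcrc1 is highest at 18 h in both strains, the Atp5b probes differ in the size of the change, and Cox7c is higher on all Balb/c arrays.

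At 4 h no member was called in either strain (3.21% of all probes in C57BL6 and 1.26% in Balb/c; 6 and 0 members at an unadjusted p below 0.05). The median change was -0.02 in C57BL6, with 46 of 101 positive (45.5%, against 48.4% of all probes), and its sign turned positive with quantile scaling (0.08), with another background correction (0.15), with the deposited ratios (0.01) and without mock replicate 1 (0.06). In Balb/c it was 0.06, with 72 positive (71.3%, against 50.8%), and negative without mock replicate 1 (-0.04) or 4 h replicate 1 (-0.03). With the block, 4 were called in C57BL6 (3.96%, against 16.5% of all probes) and 0 in Balb/c (6.86%). They were Atp5b by A_51_P207636 (0.62, adjusted p = 0.0322), Uqcrq by A_52_P396522, Atp5s, which is no subunit (-0.56, adjusted p = 0.0394), and Atp5f1 by A_52_P631514 (1.19, adjusted p = 0.0342). The last probe is close to background, was above it on 1 of the 2 C57BL6 mock arrays, and its sign turned under the other background correction; the change by the other Atp5f1 probe, A_51_P168708, was 0.11.

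Between 4 h and 18 h of IL-4, over both strains, 89 of the 101 probes had a positive difference (88.1%, against 47.7% of all probes), with a median of 0.22 (all probes -0.02). None was called (3.57% of all probes; 29 members at an unadjusted p below 0.05). With the block, 10 were called, all higher at 18 h (9.9%; 16.4% of all probes were called and 7.92% were called higher). They were Ndufb5, Ndufb2, Ndufb6, Ndufa4 and 2 probes of Ndufc1 named for complex I, Cox6b1 of complex IV, and Atp5g3, Atp5d and Atp5o of ATP synthase, with differences of 0.30 to 0.45. By complex the median was 0.14 and 0.20 for the core and accessory probes of complex I, 0.26 for complex III, 0.22 for complex IV and 0.27 for ATP synthase.

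The tissue-restricted isoforms of complex IV were near background or gave no call under IL-4. Cox8b (muscle) and Cox8c (testis) were above background on 1 array each and were not kept. Cox4i2, the lung form, was kept but near background: it was above background on both arrays of Balb/c mock and 4 h and of C57BL6 4 h, on 1 array in C57BL6 mock and 18 h, and on 0 at 18 h in Balb/c, where its change had adjusted p = 0.193. Cox7a1, a heart and muscle form, read 0.91 and 1.07 in C57BL6 mock and 0.76 and 1.06 at 18 h, and 0.72 and 0.91 against 1.30 and 1.17 in Balb/c; neither change was called. Cox6a2, also of heart and muscle, read -0.05 and 0.95 in Balb/c mock and 0.22 and 1.00 at 4 h, with replicate 2 above replicate 1 in each Balb/c condition, and its changes at 18 h of 0.62 and 0.37 were not called. Cox6b2, the testis form, differed from mock by 0.10 and -0.12 and is taken up with the strains.

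The strains differed in few members. Over all 3 conditions 5 of 101 were called (4.95%, against 18.2% of all probes), 2 higher in Balb/c and 3 lower (7.64% and 10.5% of all probes). In mock alone 1 was called (0.99%, against 5.68%). The arrays of a strain come from 2 experiments, and same-numbered arrays deviated together within a strain (correlations 0.41 to 0.773). The fit over all conditions counts them as separate samples, so its SEs and p-values for the strains are likely too small. Leaving out 1 array does not address this limit. The median difference of Balb/c from C57BL6 was -0.06 over all conditions and -0.15 in mock, where all probes had -0.05 and -0.07. In mock, 70 of the 101 probes were lower in Balb/c, and the 2 Balb/c arrays were both below the 2 C57BL6 arrays for 45 (44.6%, against 29% of all probes). The smaller replicate spread of the members bears on this share too. The median in mock was -0.09 without Balb/c replicate 1 and -0.10 without C57BL6 replicate 1, and -0.24 without replicate 2 of either strain.

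**Figure D4:**
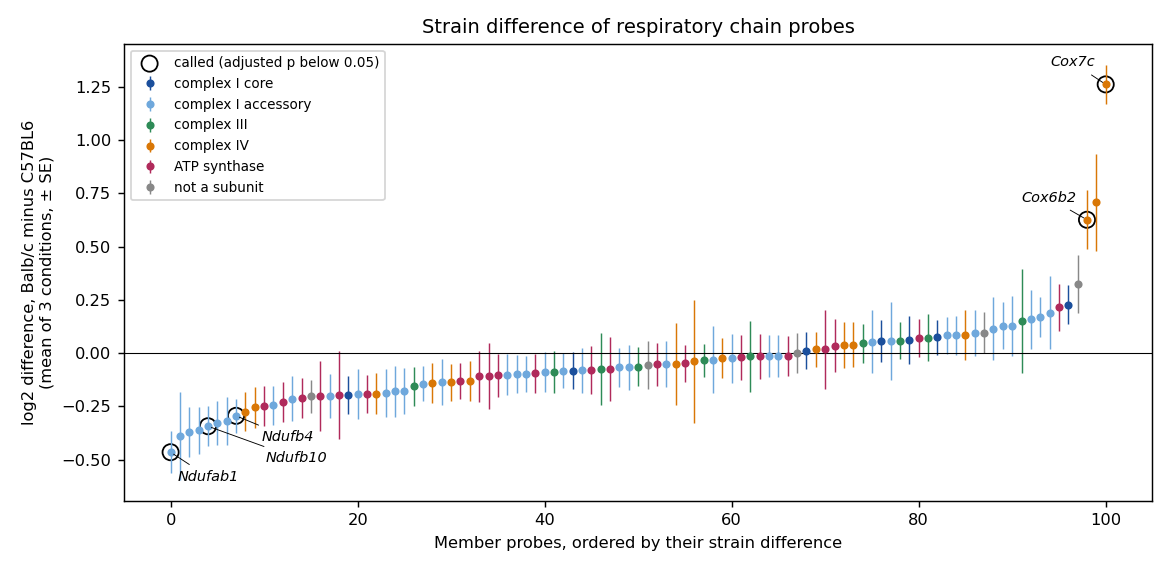
Difference of Balb/c from C57BL6 over all 3 conditions (log2, ± SE) for the 101 probes in order of size; rings mark the 5 called. Cox7c is highest at 1.26, Cox6b2 lies at 0.63, and Ndufab1, Ndufb10 and Ndufb4 are the called probes below 0.

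Cox7c, a small structural subunit of complex IV, had the largest difference of the members tested. Its 1 probe read 1.17 to 1.71 on the 6 C57BL6 arrays, with a median of 1.54, and 2.46 to 3.02 on the 6 Balb/c arrays, with a median of 2.72, and the strains did not overlap. The difference was 1.26 ± 0.09, or 2.4-fold, with adjusted p = 5.69e-05. In mock alone it was 0.95 ± 0.16 with adjusted p = 0.0121, a call that was lost without mock replicate 2 of either strain. Slides and strains overlapped little: on the 1 slide that held both strains at 4 h the difference was 1.24 between single arrays, and with the slide as a block it was 1.09 with adjusted p = 0.017. The call over all conditions held under each of the 9 other settings and without each of the 12 arrays in turn.

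Cox6b2 read -1.84 to -1.24 in C57BL6 and -1.18 to -0.64 in Balb/c, which did not overlap, and was 0.63 ± 0.14 higher in Balb/c (adjusted p = 0.0168). Cox6a2 had a difference of 0.71 ± 0.23 (adjusted p = 0.0653) and was not called. The somatic paralogue of Cox6b2, Cox6b1, differed by -0.28 ± 0.09 (adjusted p = 0.0738). Lower in Balb/c were Ndufab1 by probe A_52_P303235 (-0.47 ± 0.10, adjusted p = 0.0138), Ndufb10 (-0.34 ± 0.09, 0.0376) and Ndufb4 (-0.29 ± 0.08, 0.0396), all accessory to complex I. The Ndufab1 probe read -1.15 to -0.89 in C57BL6 and -1.75 to -1.34 in Balb/c, without overlap, while Ndufb10 and Ndufb4 overlapped. The array design assigns the called Ndufab1 probe to a record that matched no RefSeq symbol. The other Ndufab1 probes, assigned to a RefSeq transcript, overlapped between the strains and were not called. Their medians in C57BL6 and Balb/c were 3.13 and 3.00 by A_52_P1093473, and 0.82 and 0.59 by A_51_P208801. The calls of Cox6b2, Ndufab1, Ndufb10 and Ndufb4 were lost with the slide as a block, where Cox6b2 stood at 0.38 (adjusted p = 0.45) and the called Ndufab1 probe at -0.34 (0.32). The Ndufab1 call held without each array in turn, and that of Cox6b2 except without C57BL6 18 h replicate 2 (adjusted p = 0.0537). Ndufb10 was called only without Balb/c 4 h replicate 1 and Ndufb4 only without Balb/c mock replicate 2. The count of 5 fell to 2 or 3 without any 1 of the 6 C57BL6 arrays, Balb/c 4 h replicate 2 or either Balb/c 18 h array.

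No member's response to IL-4 was called different between the strains, at 4 h or at 18 h, and neither was any of the 27373 probes (0% in both fits); 1 and 2 members had an unadjusted p below 0.05. At 18 h the response in Balb/c minus that in C57BL6 was 0.69 ± 0.50 for Ndufab1 by A_51_P208801, -0.67 ± 0.47 for Cox7a2l, and 0.58 ± 0.21 for Atp5g3 (adjusted p = 0.914), among the probes not near background. Cox7a2l was counted with complex IV by its name. The larger Balb/c median at 18 h was thus not shown to differ from that of C57BL6 in any single member.

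The partners of the chain were read from further lists. Counts with the block in these lists are to be read against its calls over all probes. These were 16.5% at 4 h and 17.3% at 18 h in C57BL6, 6.86% and 14.2% in Balb/c, and 16.4% for 18 h against 4 h. Sdha, Sdhb, Sdhc and Sdhd of complex II, and Cycs and Cyc1 (cytochrome c and the cytochrome c1 subunit of complex III), gave 0 of 6 calls in each IL-4 comparison. With the block, Sdha (0.55, adjusted p = 0.0283) and Cyc1 (0.43, adjusted p = 0.0425) were called in C57BL6 at 18 h and Cyc1 (0.75, adjusted p = 0.00997) in Balb/c. Cyc1 read 3.15 and 3.73 in Balb/c mock, 3.66 and 3.94 at 4 h, and 4.03 and 4.36 at 18 h. Cycs read 3.24 in Balb/c mock replicate 1 and 4.68 in replicate 2, so its change of 0.61 had an SE of 0.43.

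Ppargc1b, a coactivator of mitochondrial gene expression, rose in both strains at both times. By probe A_51_P294891 it read -0.99 and -0.49 in C57BL6 mock, 0.77 and 0.78 at 4 h, and 0.77 and 0.94 at 18 h. In Balb/c it read -0.32 and -0.39, 1.78 and 0.94, and 1.05 and 0.93. The mock arrays were below all others, and the 4 h and 18 h arrays overlapped in both strains. The changes were 1.51 ± 0.28 and 1.59 ± 0.28 in C57BL6 (adjusted p = 0.0278 and 0.0197) and 1.71 ± 0.28 and 1.34 ± 0.28 in Balb/c (0.0307 and 0.0406). Probe A_52_P526724 gave 1.27 to 1.93 and was called except at 18 h in Balb/c (adjusted p = 0.0542), and A_52_P293222 gave 1.27 to 1.71 without a call. Between 4 h and 18 h, over both strains, the difference by A_51_P294891 was -0.15 ± 0.20 and was not called. Most of these calls were lost when 1 array was left out. By A_51_P294891 the C57BL6 call at 4 h was lost without any 1 of the 4 arrays compared (1.27 to 1.76; adjusted p = 0.0658 to 0.178), as was the Balb/c call at 18 h (1.28 to 1.40; adjusted p = 0.128 to 0.189). The C57BL6 call at 18 h was kept only without mock replicate 2 (1.34 to 1.84 over the 4; adjusted p = 0.0498 to 0.141), and the Balb/c call at 4 h only without 4 h replicate 2 (1.29 to 2.14; adjusted p = 0.0138 to 0.143).

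Of the 19 regulators tested, Ppargc1b was the only one called under IL-4 without the block. Ppargc1a, the related coactivator, was called in neither fit, nor were Tfam, which packages and transcribes mitochondrial DNA, and Nrf1; Ppargc1a was above background on 10 arrays by 1 probe and on 0 by the other. With the block, counting Ppargc1b, 2 were called higher and 1 lower at 4 h in C57BL6, 4 higher at 4 h in Balb/c, and 1 and 2 higher at 18 h. Peo1, the mitochondrial helicase, was higher at 4 h in C57BL6 (0.69, adjusted p = 0.0364 with the block), and Gabpa, a subunit of GABP, was lower (-0.51, adjusted p = 0.0331). Esrra, a nuclear receptor that works with these coactivators, was higher at 4 h in Balb/c (0.51, adjusted p = 0.0452), and lower at 18 h than at 4 h over both strains (-0.38, adjusted p = 0.0234). Pprc1, a coactivator of the same family, went the same way (0.58, adjusted p = 0.0427, and -0.36, adjusted p = 0.0354). Myc was called higher with the block in Balb/c at 4 h and 18 h (1.34 and 1.12, adjusted p = 0.044 and 0.0458), with an SE of 1.16 without it.

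Of 17 assembly factors, Nubpl, which delivers iron-sulphur clusters to complex I, fell in C57BL6 at 18 h by 0.85 ± 0.19 (adjusted p = 0.0448), a call lost without any 1 of the 4 arrays compared (adjusted p = 0.144 to 0.242). With the block, 4 were called higher at 4 h in C57BL6: Tmem126b, of complex I assembly (0.74), Bcs1l, which inserts the Rieske subunit (0.47), Cox10, of haem A synthesis (0.79), and Lrpprc, which stabilises mitochondrial transcripts (0.51). At 18 h in C57BL6 it called Tmem126b higher (0.70) and Nubpl, Cox15 (-0.50) and Cox18 (-0.56) lower. In Balb/c, Cox10 was called higher with the block at 4 h (1.14), and Acad9 (0.41), Tmem126b (0.67) and Cox10 (0.76) at 18 h. Cox10 was also called lower with the block at 18 h than at 4 h over both strains (-0.37). Of all probes the block called 16.5% at 4 h and 17.3% at 18 h in C57BL6, and 6.86% and 14.2% in Balb/c.

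Other pathways that feed or rival the chain gave few calls. By 1 probe per gene, median changes at 18 h in C57BL6 and Balb/c were 0.15 and 0.37 for the tricarboxylic acid cycle. They were 0.21 and 0.28 for fatty acid oxidation and -0.06 and 0.29 for glycolysis. Complex II and cytochrome c had 0.27 and 0.28, assembly factors -0.17 and 0.10, and regulators 0.01 and 0.11. The members had 0.13 and 0.34, so a positive median at 18 h was not particular to them. Counts with the block for these pathways are to be read against the same shares of all probes. Of 14 fatty acid oxidation genes, Etfa, which passes electrons from acyl-CoA dehydrogenases to the chain, rose at 18 h in C57BL6 by 0.66 ± 0.14 (adjusted p = 0.0438), and was higher at 18 h than at 4 h over both strains by 0.50 ± 0.10 (adjusted p = 0.0365). Both calls were lost without any 1 of the arrays compared, with adjusted p = 0.0994 to 0.248 and 0.063 to 0.156. With the block 5 were called higher at 18 h in C57BL6, Acads, Hadha, Hadhb and Echs1 besides, and Etfa in Balb/c (0.52, adjusted p = 0.0386). Cpt1a, which admits long-chain fatty acids to mitochondria, was called lower with the block at 4 h in both strains (-0.65 and -0.63, adjusted p = 0.0186 and 0.034). Of 17 tricarboxylic acid cycle genes 0 were called under IL-4; with the block Idh2 and Ogdh were called higher at 18 h in C57BL6 and Idh3a, Idh2, Dlst and Pdha1 in Balb/c. Of 16 glycolysis genes 0 were called under IL-4. With the block Eno1 was called higher at 18 h in both strains, Hk3 higher and Slc16a3, a lactate exporter, lower at 18 h in C57BL6, and Hk1 lower at 4 h in C57BL6 (-0.42).

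Between the strains, over all conditions, 6 genes of these lists were called, while 18.2% of all probes were. Their p-values carry the limit given above for the strain fit. Idh2 was 0.48 (adjusted p = 0.00877) and Peo1 0.49 higher in Balb/c (adjusted p = 0.015). Pparg, a nuclear receptor of lipid metabolism, differed by -0.93 (adjusted p = 0.00514), Slc25a20, the mitochondrial carnitine carrier, by -0.63 (adjusted p = 0.023), Gpi1, of glycolysis, by -0.31 (adjusted p = 0.029) and Slc16a3 by -0.72 (adjusted p = 0.038). The Idh2 and Pparg calls held without each of the 12 arrays in turn, and that of Peo1 without 11, all but C57BL6 18 h replicate 2. Those of Slc25a20, Gpi1 and Slc16a3 held without 8, 3 and 2 of the 12.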

How the data were processed

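The scanner files hold 1-colour Agilent intensities: the deposited processed signal is background-subtracted per the file headers, and Agilent Feature Extraction 9.5.1.1 is named in the submitters' processing notes. Deposited beside these are ratios, which matched each array's scaled processed signal divided by the C57BL6 mock mean (SD of the log2 difference at most 0.00434; column medians 0.936 to 1.132); they were used as an alternative.

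Control spots and outlier spots (103 to 134 an array) were dropped, spots of a probe averaged, and log2 signal taken minus the array's 75th percentile; 266 values were missing after this. Of 41174 probes, 27373 had a clear signal (the scanner's flag) on both arrays of any 1 group. limma 3.58.1 (R 4.3.3, data.table version 1.17.8) was fitted to 6 group means over 12 arrays (6 residual degrees of freedom), p-values were Benjamini-Hochberg adjusted over all kept probes, and an adjusted p below 0.05 was called, with no limit on fold. Errors with ± are limma's SE. The fit was tested on simulated data.

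Same-numbered samples deviated together within a strain (correlations 0.41 to 0.773) but not between strains (-0.141 to 0.254). The series text gives 2 independent experiments, so the fit with the replicate number as a block is given beside the IL-4 results it changes.

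The members and gene lists were chosen with earlier results of these data known. Members were named if called in a comparison (at most 6 each way, all for the strains), if their probes disagreed or were near background, or if they were tissue-restricted isoforms or paralogues. A fixed set of subunits and regulators was named besides, as was the highest or lowest member of a complex; from other lists only called genes were to be named, at most 6 a list; the genes past that number (fatty acid oxidation, assembly factors and regulators) were chosen after their values were seen, as was Cox7a2l. Gene names are those of the array design. A protocol mentions lipopolysaccharide, but no sample label carries it. One member's result is not reported here.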

Additional observations from a re-analysis of the deposited data

How the results depend on the processing

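The alternatives were quantile scaling, normexp background correction, no background filter, a filter on all 12 arrays, the slide or the replicate number as a block, only the arrays compared, 1 probe per gene, array weights, the deposited ratios, and each array left out. For strain over all conditions, only the arrays compared gives the same fit and was not repeated. Of the alternative values of medians and counts, 239 moved little and 51 moved. The median change at 18 h was positive in both strains under each alternative, and the medians of both strain comparisons were negative. The cause of the moves below was not tested.

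Member calls in C57BL6 at 18 h, 1 as reported, were 2 with quantile scaling, the filter on all 12 arrays or array weights, and 0 with normexp, no filter, the slide block, only the arrays compared, 1 probe per gene or any 1 array left out (0 to 0). The replicate block gave 4 and 11 in C57BL6 at 4 h and 18 h, 12 in Balb/c at 18 h and 10 for 18 h against 4 h. For the strains it gave 2 in mock and 10 over all conditions. Same-numbered samples did not deviate together between strains (correlations -0.141 to 0.254), so these strain counts are not read as a result. Without the block, 5.68% and 18.2% of all probes were called in these strain comparisons. The filter on all 12 arrays gave 1 in Balb/c at 18 h. Calls between strains in mock, 1 as reported, were 0 with normexp, the slide block or only the arrays compared. Over all conditions, 5 as reported, they were 1 with normexp or the slide block and 3 with no filter or the deposited ratios. With an array left out, the counts were 0 to 1 for 18 h against 4 h, 0 to 1 in mock and 2 to 6 over all conditions.

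With normexp the medians were 0.15 (C57BL6 4 h), 0.51 (C57BL6 18 h), 0.61 (Balb/c 18 h), 0.45 (18 h against 4 h) and -0.094 (strain difference of the response at 4 h), but it also moved the median of all probes, to -0.36, -0.55, -0.41, -0.38 and 0.31. Quantile scaling gave 0.081 in C57BL6 at 4 h, -0.014 for the strains in mock and 0.025 for the strain difference of the response at 18 h. The slide block gave -0.33 in mock and -0.20 over all conditions. With an array left out, the medians ranged from -0.11 to 0.06 in C57BL6 at 4 h, 0.08 to 0.23 at 18 h, -0.040 to 0.13 in Balb/c at 4 h, 0.21 to 0.41 at 18 h, 0.18 to 0.26 for 18 h against 4 h, -0.24 to -0.09 in mock, -0.11 to -0.03 over all conditions, and -0.0086 to 0.16 and 0.07 to 0.23 for the strain difference of the response at 4 h and 18 h.

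Of 977 values for named probes, 817 kept their direction and call, 105 lost a call, 52 gained one and 3 changed sign. The sign changes were with normexp, for Uqcrq A_52_P396522 in C57BL6 (-0.60 at 4 h, -1.31 at 18 h) and Atp5f1 A_52_P631514 (-0.93 at 4 h). Probes near background and 2 arrays a group limit what these data can resolve.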
